A study of Mus musculus with 4 samples.

Results

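The genes described here are 9 integrin chains of T cells other than CD103 and its partner: the α chains Itga1, Itga4, Itga6, Itgal, Itgav and Itgax and the β chains Itgb1, Itgb2 and Itgb3. They were chosen by name, not by their values, though with earlier results of these data known. They are 9 of the 24062 rows of the deposited count table. All 9 passed the filter on low counts, which kept 11271 genes. The cells were gBT-I cells, CD8+ T cells with a transgenic receptor for the herpes simplex virus peptide gB498-505, from transgenic donor mice kept specific pathogen free (SPF). In every group the donor splenocytes were cultured with that peptide and LPS to activate them, received IL-1 on days 2 and 3, and were transferred by vein on day 4. The recipients were C57BL/6 mice, either SPF (2 libraries) or germ free (GF, 2 libraries), and the cells were sorted from the spleen 7 days after transfer. The labels give neither the age of the mice nor whether a library holds 1 or several recipients, so a p-value here reflects the spread of 4 libraries, which may be technical. All groups share the transgenic receptor and the activation before transfer, and by the labels they differ in the recipient.

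An integrin is a surface receptor made of 1 α and 1 β chain, and a chain reaches the surface only with a partner. Signals from the T cell receptor or from chemokine receptors reach the cytoplasmic tails, where talin and kindlin bind and switch the receptor to its high-affinity form. In CD8+ T cells, LFA-1 (Itgal with Itgb2) binds ICAM-1 on target cells and vessel walls, and VLA-4 (Itga4 with Itgb1) binds VCAM-1 and fibronectin. VLA-1 (Itga1 with Itgb1) binds collagen and marks many tissue-resident memory cells, and VLA-6 (Itga6 with Itgb1) binds laminin. CD11c (Itgax with Itgb2) is best known as a marker of dendritic cells but is also carried by activated CD8+ T cells. The αv chain (Itgav) pairs with β1, β3 and other β chains and binds vitronectin and latent TGF-β, and β3 (Itgb3) is also the β chain of the platelet fibrinogen receptor.

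Total counts ran from 11544960 to 14431533 per library. The sorted cells matched their label: the CD8 co-receptor gene Cd8a had 10668 to 14514 counts, the kinase gene Lck 12856 to 14186, and Cd4 had 0 to 6. The libraries differed by replicate number as well as by recipient, in step with transcript length. Over 11194 genes (genes are not replicates), Spearman's rho of transcript length with the log2 difference of replicate 2 minus 1 was 0.58 in SPF and 0.52 in GF, and with GF minus SPF it was 0.42. This bears on integrins, whose transcripts are long: Itga1 (10967 nt) and Itga4 (9767 nt) lie at the 98.8th and 98.0th percentiles of length among tested genes, Itgb2 (2970 nt) at the 51.2nd. In mm10, Itgal lies at chr7:127296260-127335138, Itgax at chr7:128129547-128150657, Itgb2 at chr10:77530252-77565708, Itgb1 at chr8:128685654-128733200 and Itgb3 at chr11:104608000-104670476. Itga6 (chr2:71745616-71858416), Itga4 (chr2:79255426-79333123) and Itgav (chr2:83724397-83806916) lie on chromosome 2, and Itga1, the only one on the minus strand, at chr13:114953096-115101964. In bulk RNA, fewer cells that carry a transcript and less transcript per cell cannot be told apart.

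None of the 9 chains passed the edgeR quasi-likelihood test of GF against SPF after Benjamini-Hochberg adjustment (adjusted p from 0.86 to 0.99), and 0 had an unadjusted p under 0.05. Over all tested genes 0% were called higher and 0% lower, and 363 had an unadjusted p under 0.05. DESeq2 and the edgeR exact test, which called 8 genes higher and 1 lower each, also called 0 of the 9. With the replicate number as a block, edgeR called Itgax and Itga1 higher, and 6.97% of all tested genes. No label says what a replicate number marks. Of the 9 log2 fold changes fitted without that block, 8 were above 0, against 49.7% of all tested genes. With a trend on transcript length removed, 6 were above 0. Without SPF replicate 1 or without GF replicate 2, 5 were, and without SPF replicate 2 or without GF replicate 1, all 9. The median of the 9 was 0.25, against -0.004 over all genes and 0.28 over the decile of longest transcripts. That decile starts at 6300 nt, which most of the 9 chains do not reach, so it is not matched to them in length. The median of the 9 was 0.14 with the length trend removed, 0.01 without SPF replicate 1 and 0.11 without GF replicate 2. The GF libraries were the higher ones without overlap for 3 chains (Itgax, Itgb1 and Itgav), against 16.8% of all tested genes, and the lower ones for 0, against 16.4%. The largest fold was that of Itgax, and the only value below 0 was that of Itgb3.

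**Figure D1:**
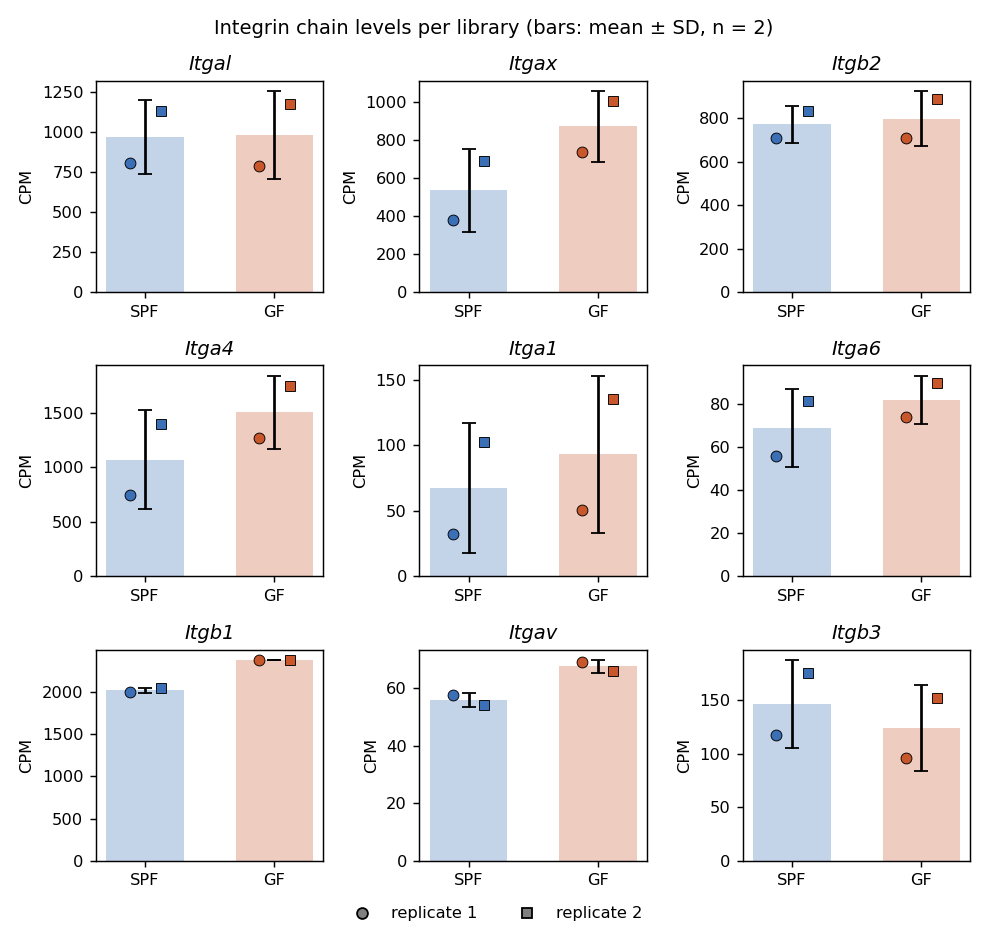
Levels in CPM (counts scaled to library size, with TMM) of the 9 integrin chains in each library, with bars for the group mean ± SD (n = 2) and circles and squares for replicates 1 and 2. Groups are separate for Itgax, Itgb1 and Itgav, and in 7 of the 9 panels replicate 2 lies above replicate 1 in both groups.

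The β2 family showed the clearest contrast between its members. Itgax measured 379.98 and 690.6 CPM in SPF replicates 1 and 2 and 740.3 and 1004.4 CPM in GF replicates 1 and 2. Both GF libraries were higher than both SPF libraries, although GF replicate 1 exceeded SPF replicate 2 by only 0.10 on the log2 scale. The log2 fold change was 0.70 (SE 0.37, adjusted p = 0.86 by the edgeR quasi-likelihood test). Itgal measured 806.8 and 1134.3 CPM in SPF and 788.6 and 1177.3 CPM in GF. The GF libraries lay on either side of the SPF range, and the log2 fold change was 0.02 (SE 0.32). Their partner Itgb2 measured 711.3 and 834.3 CPM in SPF and 710.5 and 889.4 CPM in GF, a log2 fold change of 0.05 (SE 0.25). The differences of both LFA-1 chains were smaller than those between replicates of a group. Their 95% intervals on the log2 scale, -0.79 to 0.82 for Itgal and -0.57 to 0.67 for Itgb2, leave room for changes in either direction.

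The ratio of Itgax to Itgal, a comparison picked after the values were seen, is taken within each library and does not depend on library scaling. Its size does depend on the transcript lengths used. Per kilobase of transcript, the Itgax level was 0.605 and 0.782 of the Itgal level in SPF replicates 1 and 2, and 1.21 and 1.10 of it in GF replicates 1 and 2. On this per-kilobase scale Itgal was the more abundant of these chains in both SPF libraries and Itgax in both GF libraries. In CPM, without division by length, Itgal was the higher in every library. The mean ratio was 0.693 ± 0.125 in SPF and 1.15 ± 0.08 in GF (SD, n = 2 each). An exact two-sided permutation test gave p = 0.333, the smallest that 2 libraries against 2 allow. Of the summed per-kilobase level of the α chains that pair with β2, Itgax made up 38.2% ± 4.6 in SPF and 50.8% ± 1.8 in GF, and Itgal 55.3% ± 3.4 and 44.2% ± 1.4 (SD, n = 2). Itgam, the α chain of Mac-1, made up 6.29% ± 1.16 and 4.74% ± 0.38. Summed, these α chains measured 1.12 and 1.47 times the Itgb2 level in SPF and 1.47 and 1.67 times in GF.

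**Figure D2:**
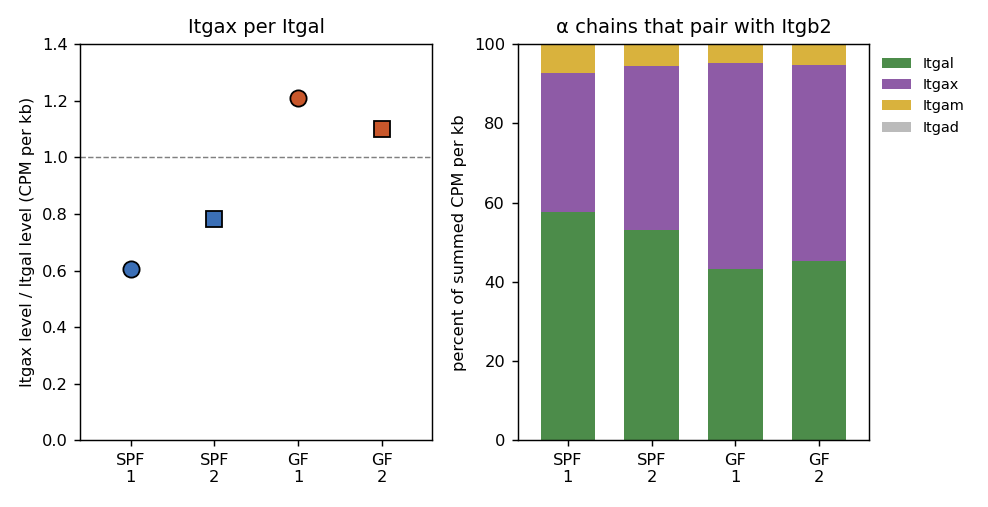
Left, the Itgax level divided by the Itgal level in each library, both in CPM per kilobase of principal transcript. Right, the share of each α chain that pairs with Itgb2 in their summed level. The ratio lies under 1 in both SPF libraries (0.605 and 0.782) and above 1 in both GF libraries (1.21 and 1.10).

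Itgax is also carried by dendritic cells and macrophages, whose listed markers differed in their order over the libraries. The summed level of the 10 dendritic cell markers was 77.7 and 18.1 CPM in SPF replicates 1 and 2 and 95.6 and 17.5 CPM in GF replicates 1 and 2. This sum, though not each marker in it, was thus high in the libraries numbered 1, where Itgax was lower in each group. Most of this sum came from MHC class II genes and Cd74, which B cells share, and from Xcr1, while 5 of the 10 markers stayed under 1 CPM in every library. Among those, Flt3 had 0 to 2 counts and Clec9a 0 to 1. Of 10 macrophage, monocyte and neutrophil markers, 8 were found under the symbols searched, with Csf1r at 0 to 7 and Cd14 at 0 to 2 counts. Cd68 had 40 and 91 counts in SPF replicates 1 and 2 and 60 and 151 counts in GF, higher in the libraries numbered 2 as Itgax was, and Lyz2 had 48, 8, 65 and 0 counts in the same order. The part of such cells in the Itgax values was not tested. Most of that list's sum of 84.7 to 123.4 CPM was Itgam itself, at 1019 to 1630 counts.

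The VLA-4 chain Itga4 varied about as much between replicates as between recipients. It measured 750.4 and 1395.9 CPM in SPF replicates 1 and 2 and 1272.1 and 1746.4 CPM in GF replicates 1 and 2. SPF replicate 1 stood apart from the other libraries, and SPF replicate 2 lay within the range of the GF libraries. The log2 fold change was 0.49 (SE 0.38, adjusted p = 0.86 by the edgeR quasi-likelihood test). Replicate 2 exceeded replicate 1 by 0.90 in SPF and 0.46 in GF on the log2 scale. Some 8.04% of the merged exons of Itga4 (1124 nt) overlap exons of Cerkl on the opposite strand, which the library kit does not tell apart. Cerkl had 32 to 51 counts, against 8591 to 24402 for Itga4.

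Itga1, the collagen-binding α chain, differed most between replicates of all 9 chains. It measured 32.3 and 102.6 CPM in SPF replicates 1 and 2 and 50.5 and 135.7 CPM in GF replicates 1 and 2. Both libraries numbered 1 were low and both numbered 2 were high, so the groups overlapped. Replicate 2 exceeded replicate 1 by 1.66 in SPF and 1.42 in GF on the log2 scale, while the fold of GF over SPF was 0.46 (SE 0.69). Counting error was small beside this. The lowest value rests on 370 counts, with an exact 95% Poisson interval of 333 to 410, against 1452 counts in the other SPF library. Itga2, the α chain of the collagen receptor VLA-2, had the same order of libraries, with 34 and 449 counts in SPF and 292 and 693 counts in GF. The gene Pelo lies within Itga1 on the same strand without exonic overlap and had 461 to 571 counts. Exons of Gm49395, on the same strand and without a row of counts, overlap 3.68% of the merged exons of Itga1 (685 nt).

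The folds of Itgax, Itga4 and Itga1 depended on which SPF and which GF library was used. Between libraries of the same number, GF exceeded SPF by 0.96 (number 1) and 0.54 (number 2) for Itgax, 0.76 and 0.32 for Itga4, and 0.64 and 0.40 for Itga1 on the log2 scale. GF replicate 1 minus SPF replicate 2 was 0.10, -0.13 and -1.02. Without SPF replicate 2 all 3 passed the edgeR quasi-likelihood test, at log2 fold changes of 1.19 (adjusted p = 0.011), 1.00 (adjusted p = 0.039) and 1.52 (adjusted p = 0.00038), where 6.77% of all tested genes were called higher in GF. Without SPF replicate 1 they had log2 fold changes of 0.34, 0.11 and -0.14. Without GF replicate 2 they were 0.47, 0.24 and -0.42, and without GF replicate 1 they were 0.91, 0.70 and 1.01, none of these called. Such fits leave a lone library in 1 group, which is assumed to vary like the libraries of the other group. With a trend on transcript length removed from each library, the log2 fold change of Itgax was 0.63 (SE 0.25), that of Itga4 0.19 (SE 0.12) and that of Itga1 0.14 (SE 0.35). None of them passed in that fit either (adjusted p = 0.69, 0.70 and 0.91 by the edgeR quasi-likelihood test).

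**Figure D3:**
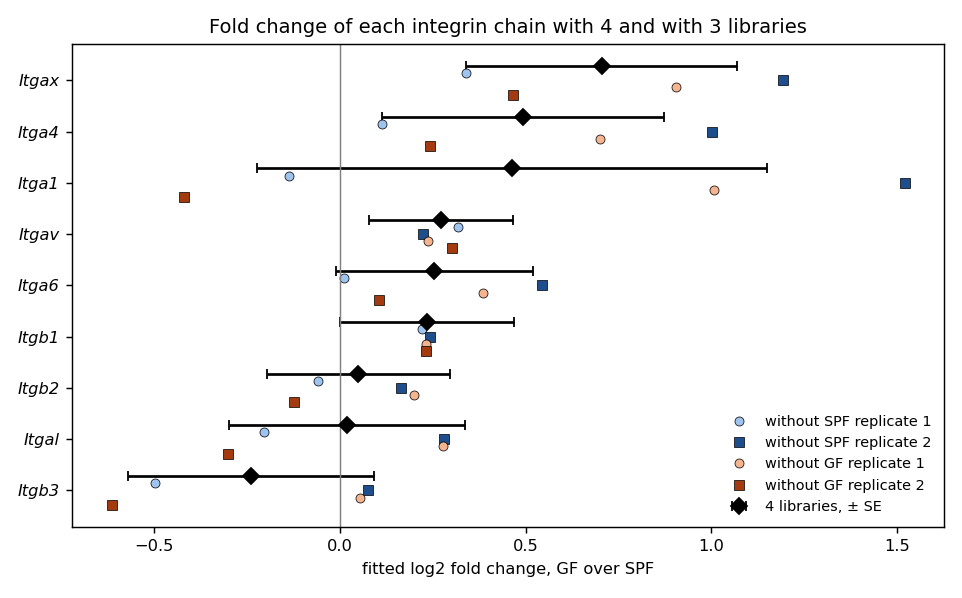
Fitted log2 fold change of GF over SPF for each chain from all 4 libraries (diamonds, ± SE) and with each library left out (circles and squares). Itgb1 and Itgav stay between 0.22 and 0.32 in each of these fits, whereas Itga1 runs from -0.42 to 1.52.

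The promoters of these 3 chains are shown because their transcripts had the largest folds and shared the order of SPF replicate 1 lowest and GF replicate 2 highest. Each is the RefSeq window (GRCm38.p6, the assembly of mm10) from 250 bases before to 50 bases after the gene's start, 5′ to 3′ on the gene's strand. Itgax is at chr7:128129300-128129599 on the plus strand, Itga4 at chr2:79255176-79255475 on the plus strand and Itga1 at chr13:115101915-115102214 on the minus strand. Capitals mark motifs that were searched on both strands and do not overlap here: a RUNX motif (TGTGGT), an ETS motif (AGGAAG), a GC box (GGGCGG) and a TATA box (TATAAA). Of the 9 chains, 5 had a window in the table. Itga6, which also had SPF replicate 1 lowest and GF replicate 2 highest, was not among them.
Itgax: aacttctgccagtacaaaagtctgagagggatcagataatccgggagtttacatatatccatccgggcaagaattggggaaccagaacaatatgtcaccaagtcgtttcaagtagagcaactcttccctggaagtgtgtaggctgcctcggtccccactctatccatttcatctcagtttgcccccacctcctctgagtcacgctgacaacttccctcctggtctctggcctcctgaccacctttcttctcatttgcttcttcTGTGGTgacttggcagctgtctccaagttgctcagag
Itga4: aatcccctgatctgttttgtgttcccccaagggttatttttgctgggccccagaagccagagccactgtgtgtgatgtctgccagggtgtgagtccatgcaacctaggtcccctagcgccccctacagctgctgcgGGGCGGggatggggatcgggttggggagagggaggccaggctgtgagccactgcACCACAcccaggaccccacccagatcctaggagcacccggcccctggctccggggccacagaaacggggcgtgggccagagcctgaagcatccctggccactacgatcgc
Itga1: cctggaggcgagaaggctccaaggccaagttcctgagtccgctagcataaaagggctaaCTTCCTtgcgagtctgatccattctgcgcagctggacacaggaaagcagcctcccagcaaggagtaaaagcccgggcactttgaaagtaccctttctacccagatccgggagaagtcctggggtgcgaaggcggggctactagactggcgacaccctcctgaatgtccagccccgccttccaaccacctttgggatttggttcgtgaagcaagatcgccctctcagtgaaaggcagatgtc
The Itgax window holds a RUNX motif that begins at position 14, counted from 1 at the gene's start. The Itga4 window holds a RUNX motif on the opposite strand at position -60 and a GC box at -114, and the Itga1 window an ETS motif on the opposite strand at -191. Of all 32851 windows, 16.8% hold the RUNX, 35.4% the ETS, 35.7% the GC box and 13.6% the TATA motif, so these matches are common and are given as a description of the sequence.

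Itgb1, the β chain that VLA-1, VLA-4 and VLA-6 share, was the most even of the 9. It measured 2001.9 and 2043.2 CPM in SPF replicates 1 and 2 and 2379.0 and 2376.9 CPM in GF replicates 1 and 2. Both GF libraries were higher than both SPF libraries, and replicates of a group differed by at most 0.03 on the log2 scale. The log2 fold change was 0.23 (SE 0.23, adjusted p = 0.86 by the edgeR quasi-likelihood test), where the SE comes from the spread shared by genes of like abundance and not from Itgb1 alone. With each library left out in turn it ran from 0.22 to 0.24.

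Itgav had the same separation at a level far lower. It measured 57.7 and 54.3 CPM in SPF and 69.2 and 66.1 CPM in GF, and both GF libraries were higher than both SPF libraries. The log2 fold change was 0.27 (SE 0.19, adjusted p = 0.86 by the edgeR quasi-likelihood test), and 0.22 to 0.32 with each library left out. Unlike the other long transcripts Itga4 and Itga1, Itgav (7054 nt) differed little between replicates, by -0.09 in SPF and -0.07 in GF on the log2 scale. With the length trend removed its fold was -0.02 (SE 0.28), so its direction was lost. Exons of Gm13684 on the opposite strand overlap 5.90% of the merged exons of Itgav.

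Itga6 and Itgb3 overlapped between groups. Itga6 measured 56.1 and 81.6 CPM in SPF and 74.3 and 90.0 CPM in GF, a log2 fold change of 0.25 (SE 0.27). The fold ran from 0.01 without SPF replicate 1 to 0.54 without SPF replicate 2, and was 0.15 with the length trend removed. SPF replicate 1 was the lowest library and SPF replicate 2 lay between the GF libraries. Itgb3 measured 117.3 and 175.6 CPM in SPF and 95.9 and 152.4 CPM in GF, a log2 fold change of -0.24 (SE 0.33). It was the one chain with lower mean values in GF, with GF replicate 1 the lowest library and SPF replicate 2 the highest. Its fold turned to 0.08 without SPF replicate 2 and to 0.05 without GF replicate 1, and it was -0.45 (SE 0.18) with the length trend removed.

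Itgb3 is also the platelet β chain, and platelet transcripts were near 0. Pf4, Gp9, Gp6 and Treml1 had 0 counts in all 4 libraries, which allows up to 3 counts or 0.21 to 0.26 CPM each and covers counting error only. The summed level of the platelet markers was 2.77 and 6.13 CPM in SPF and 8.86 and 7.48 CPM in GF. Most of it came from Gp1ba (8 to 61 counts) and from the platelet α chain gene Itga2b (22 to 64 counts). Both had more counts in each GF library than in either SPF library. The part of platelets in the Itgb3 values was not tested.

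**Figure D4:**
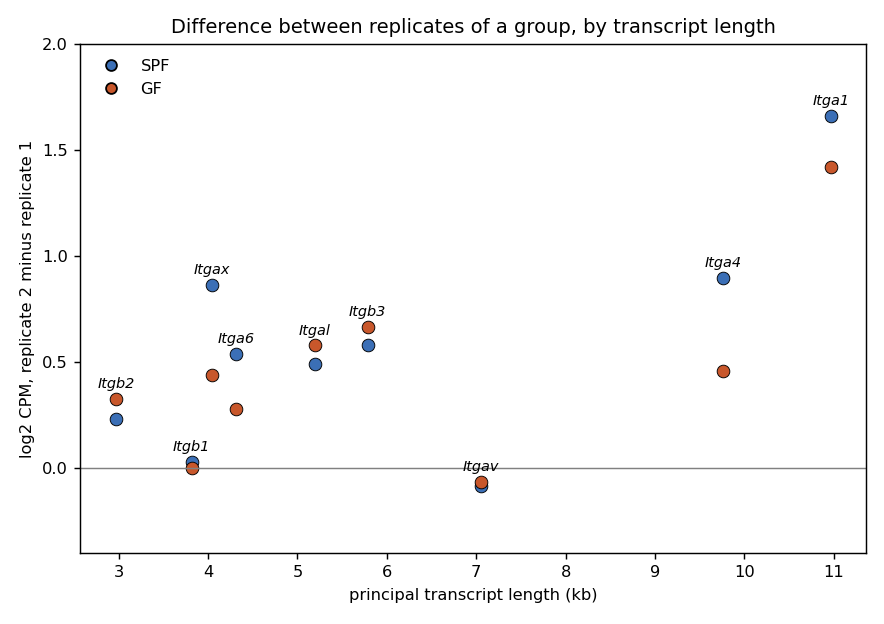
Log2 difference of replicate 2 minus replicate 1 (CPM) in each group for the 9 chains, against the length of the principal transcript in kilobases. Itga1 differs by 1.66 in SPF and 1.42 in GF, while Itgb1 and Itgav lie within 0.09 of 0.

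Compared per kilobase of principal transcript, Itgb1 and Itgb2 led. Itgb1 was highest, at 524.8 to 623.6 CPM per kilobase over the 4 libraries, followed by Itgb2 at 239.2 to 299.4. The range of Itgb2 touched neither that of Itgb1 nor that of Itgal, but overlapped that of Itgax. Itgal (151.8 to 226.6), Itgax (93.9 to 248.2) and Itga4 (76.8 to 178.8) followed, and neighbours among these 3 overlapped over the libraries. Within each library Itgax was above Itga4, while Itgal was above Itgax in 2 of 4. Itgb3 (16.6 to 30.4) and Itga6 (13.0 to 20.9) overlapped, with Itgb3 above in 3 of 4 libraries. Itgav (7.70 to 9.81) and Itga1 (2.95 to 12.4) were lowest and overlapped, with Itgav above Itga1 in the libraries numbered 1 and below it in those numbered 2. The order was the same with merged exons as the length. Itga4 thus measured 0.146 and 0.267 of the Itgb1 level in SPF and 0.209 and 0.287 in GF, and Itgal 0.648 and 0.777 of the Itgb2 level in SPF and 0.635 and 0.757 in GF.

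Likeness of profiles was measured as the root mean square difference of centred log2 CPM over the 4 libraries, among the 9 chains and the tested pathway genes. This is a description over few libraries. Itgax was closest to the α3 chain gene Itga3 (0.07), Itgb1 to the adaptor gene Fyb (0.05), Itgav to Tgfb1 (0.04) and Itgal to the adaptor gene Crkl (0.04). Itgb2 was closest to Rasgrp1, an exchange factor that activates Ras (0.03), Itga6 to the Rap1 inactivator gene Sipa1 (0.01), Itga4 to Sipa1l1 (0.09), Itgb3 to Itgb5 (0.08) and Itga1 to the laminin chain gene Lama5 (0.28). Itgb5 had only 8 to 15 counts and Lama5 11 to 53, so counting error weighs on their profiles. Among the 9 chains themselves, the nearest were Itgb1 and Itgav (0.05) and Itga4 and Itgax (0.11).

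Of 15 other integrin chains in the table, 8 passed the low-count filter, and 0 of them were called. Of their log2 fold changes, 4 were above and 4 below 0. The median of 0.34 falls in the gap between Itga3 (0.70) and Itgam (-0.03), so it describes no gene of the list. In 3 genes both GF libraries were the higher ones (16.8% over all tested genes). These were Itga3, a laminin-binding α chain (11.7 ± 3.8 against 19.1 ± 4.4 CPM), Itgad, an α chain of the β2 family (2.73 ± 0.03 against 4.53 ± 1.38 CPM), and Itga2b (2.62 ± 0.99 against 4.40 ± 0.05 CPM; SPF against GF, SD, n = 2). Itgam measured 96.96 ± 11.2 against 94.9 ± 30.8 CPM, and Itga2 17.3 ± 20.3 against 34.8 ± 21.0 CPM. Itga8, Itgb6 and Itgb8 had 0 counts in all libraries, so the αv partners β6 and β8, known for activating latent TGF-β, were not detectable at this depth.

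Activators of integrins were next. Of 20 listed genes 16 were tested, 0 were called, 13 had log2 fold changes above 0 (49.7% over all tested genes), and in 6 the GF libraries were the higher ones without overlap (16.8% over all tested genes). The median was 0.16. The kindlin-3 gene Fermt3, which integrin activation in leukocytes requires, measured 265.4 ± 15.2 against 345.6 ± 23.02 CPM. The gene of RIAM (Apbb1ip), which brings talin to the membrane, measured 209.7 ± 2.6 against 276.4 ± 37.8 CPM, and Rapgef1, a Rap1 exchange factor, 191.4 ± 68.2 against 288.4 ± 34.8 CPM. In these 3 the groups did not overlap. Talin itself (Tln1, 8393 nt) measured 486.0 and 1059.4 CPM in SPF and 924.2 and 1409.4 CPM in GF, and the groups overlapped as for Itga4. The GTPase gene Rap1b measured 682.9 ± 196.7 against 563.8 ± 39.6 CPM, and the actin regulator gene Vasp 593.5 ± 168.8 against 619.0 ± 51.3 CPM.

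Genes listed as restraining integrins or their GTPases split both ways. Of 12 listed, 11 were found under the symbols searched and 10 were tested, with 0 called. Of the 10, 6 were above and 4 below 0 (49.7% above over all tested genes), with a median of 0.23. The GF libraries were the higher ones without overlap in 3 and the lower ones in 2 (16.8% and 16.4% over all tested genes). Rasa3, which turns off Rap1 and Ras, measured 784.7 ± 222.4 against 1190.0 ± 125.9 CPM, without overlap. Itgb1bp1, whose product ICAP-1 binds the β1 tail, measured 54.0 ± 10.8 against 42.1 ± 2.6 CPM and the adaptor gene Dok2 242.4 ± 33.1 against 187.1 ± 1.4 CPM, both without overlap. Filamin A (Flna, 8456 nt), which competes with talin for β tails, measured 1345.9 ± 777.1 against 2073.2 ± 630.5 CPM, and Cytip, a brake on cytohesin-1, 585.2 ± 35.6 against 546.1 ± 23.2 CPM, both with overlap.

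Of 23 genes of adhesion signalling 18 were tested and 0 called, with 15 above 0 (49.7% over all tested genes) and a median of 0.15. The GF libraries were the higher ones without overlap in 4 and the lower ones in 1 (16.8% and 16.4% over all tested genes). Zyx, whose product zyxin sits at adhesion sites on actin, measured 655.7 ± 11.9 against 903.6 ± 8.4 CPM, a log2 fold change of 0.46 (SE 0.21), with replicates close together. The kinase gene Fyn measured 387.0 ± 16.5 against 427.2 ± 10.4 CPM, the GTPase gene Rac2 1445.2 ± 319.3 against 1398.4 ± 166.8 CPM, and the vinculin gene Vcl 25.5 ± 4.3 against 32.4 ± 5.7 CPM. Src rests on 3 and 9 counts in SPF and 17 and 21 counts in GF.

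Membrane partners were the list with a median below 0, at -0.08, and the shortest transcripts (median 1819 nt against 5195 nt for the 9 chains). Of 12 listed 9 were tested and 0 called, with 7 below 0. In 3 the GF libraries were the lower ones without overlap (16.4% over all tested genes): the tetraspanin genes Cd53 (915.7 ± 206.4 against 685.2 ± 27.8 CPM), Cd82 (384.7 ± 64.5 against 336.7 ± 2.6 CPM) and Cd9 (13.0 ± 2.6 against 8.59 ± 0.31 CPM). Cd47, a partner of β3 integrins and a signal against phagocytosis, measured 359.97 ± 64.4 against 354.0 ± 5.8 CPM. Tspan32 measured 17.0 ± 9.4 against 13.1 ± 0.9 CPM.

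Of 23 ligand genes 8 passed the low-count filter and 0 were called. The GF libraries were the higher ones without overlap in 4 and the lower ones in 1 (16.8% and 16.4% over all tested genes). Tgfb3, a TGF-β that αv integrins can release from its latent form, had 64 and 99 counts in SPF and 208 and 196 in GF. Its level was 6.29 ± 0.99 against 14.1 ± 0.1 CPM, a log2 fold change of 1.16 (SE 0.29, adjusted p = 0.86 by the edgeR quasi-likelihood test) and the only unadjusted p under 0.05 in the pathway lists. Tgfb1 measured 121.2 ± 7.4 against 143.9 ± 2.3 CPM. The LFA-1 ligand genes went opposite ways: Icam1 measured 94.4 ± 10.4 against 126.4 ± 20.6 CPM and Icam2 124.1 ± 24.1 against 88.97 ± 11.8 CPM, both without overlap and neither called. The laminin chain gene Lamc1 measured 30.6 ± 12.7 against 55.2 ± 24.0 CPM. The VLA-4 ligand gene Vcam1 had 1 to 10 counts and Madcam1 had 0.

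**Figure D5:**
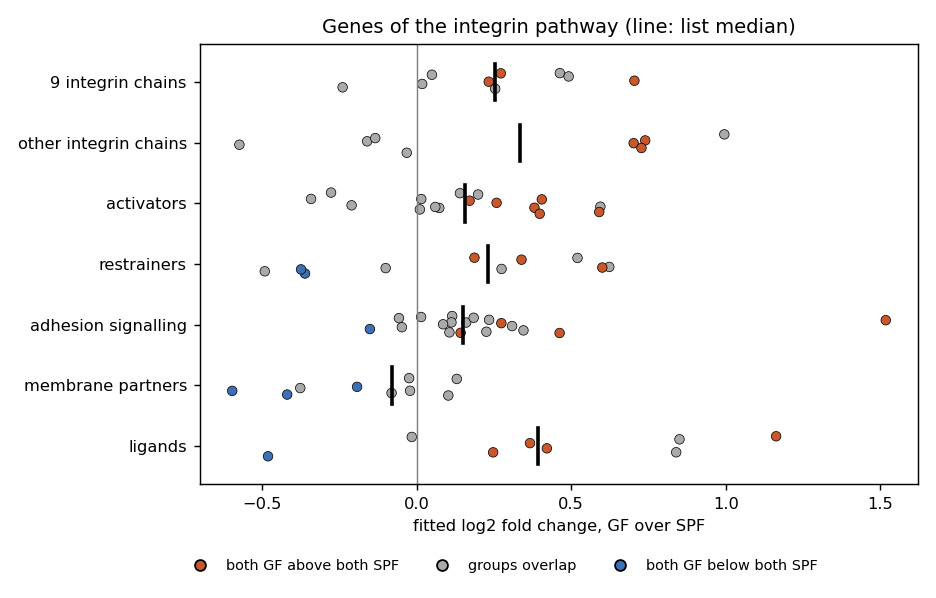
Fitted log2 fold change of GF over SPF for each tested gene of the 9 integrin chains and 6 lists of pathway genes, with the median of each list as a line. Orange points mark genes whose GF libraries lie higher without overlap and blue points lower, and no gene passed the test.

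Markers of other cells were low beside CD8 T cell genes, whose 10 markers summed to 4837 to 6458 CPM. B cell markers summed to 63.5 and 25.5 CPM in SPF replicates 1 and 2 and 73.3 and 27.4 CPM in GF, led by Cd79b (328 to 604 counts), and again followed the replicate number. NK cell markers summed to 76.0 and 54.5 CPM in SPF and 45.9 and 37.9 CPM in GF, led by Klrb1c (413 to 577 counts), with Ncr1 at 0 to 3 counts. Stromal and endothelial markers summed to at most 1.20 CPM (Cdh5 at 1 to 8 counts), erythroid markers to at most 1.65 CPM (Alas2 at 11 to 17 counts), and CD4 T cell markers to 15.6 to 30.7 CPM, nearly all Cd40lg. The part of these cells in the integrin values was not tested.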

How the data were processed

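RNA of gBT-I cells was sequenced in 2 libraries from SPF and 2 from GF recipients, from 1 µg of total RNA per library prepared with the Illumina TruSeq RNA kit; this kit does not mark strand. The deposited table holds raw read counts per gene made by the authors, 1 column per library. The submitters' processing notes name mm10 as the build, and featureCounts and Subread, TopHat, CASAVA, Picard and edgeR as tools. Their versions, annotation and settings are details not given in the sources used here.

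GF was compared with SPF in edgeR 4.0.16 (R 4.3.3) by the two-sided quasi-likelihood test on counts, with TMM scaling, filterByExpr and no covariate. P-values were adjusted by Benjamini-Hochberg over all 11271 tested genes, with 0.05 as the threshold. The SE of a log2 fold change was derived from it and its F statistic. CPM values use TMM-scaled totals, sums of marker lists plain totals, and differences between libraries log2 CPM with a prior count of 2. Alternatives included DESeq2 1.42.0, limma-voom (limma 3.58.1), other scalings and filters, a lowess trend on transcript length (span 0.3) removed per library, the replicate number as a block, and each library left out. Replicates of a group differed by more than sampling noise (chi-square per degree of freedom of 89.2 in SPF and 43.9 in GF), so each library was counted once.

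Positions and lengths of the longest principal transcript came from GENCODE M21 (GRCm38, the assembly of mm10), matched for 99.3% of tested genes. Scripts were tested on simulated counts. The 9 chains, the gene lists and the tests were chosen with earlier results of these data known. The text names all 9 chains, and of each pathway list the 3 most abundant genes and the 3 with the smallest p, of each marker list the most abundant gene, and for each chain the gene with the closest profile. The CD8 T cell list is represented by Cd8a beside its most abundant gene. Other genes, and the ratio of Itgax to Itgal, were chosen after their values were seen.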

Additional observations from a re-analysis of the deposited data

How the results depend on the processing

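The count of 0 integrin chains and 0 genes called was the same with other scalings, other low-count filters, limma-voom, a false discovery rate of 0.1 and the length trend removed. DESeq2 and the edgeR exact test called 8 genes higher and 1 lower each and 0 of the 9 chains. With each library left out in turn, 0 to 783 genes were called higher and 0 to 544 lower, and 0 to 3 chains higher and 0 lower, all 3 without SPF replicate 2. Without SPF replicate 1 the test called 15 genes higher and 2 lower.

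The groups share replicate numbers, but no label says what a number marks, so the libraries were treated as unpaired. Over 11271 genes the differences of replicate 2 minus 1 in SPF and in GF had a Pearson r of 0.71. With the replicate number as a block, edgeR called 786 genes higher (6.97%) and 420 lower and 2 chains higher, Itgax (log2 fold change 0.75, adjusted p = 0.0089) and Itga1 (0.52, adjusted p = 0.040). With the replicate block and the length trend removed it called 172 and 60 genes and 1 chain, Itgax (0.65, adjusted p = 0.030).

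Several folds changed sign. Itgal had -0.16 with block and length trend removed, -0.15 with the length trend removed, and -0.30 to 0.28 with a library left out. Itgav had -0.018 with the length trend removed. Ranges with a library left out were -0.42 to 1.52 for Itga1, -0.12 to 0.20 for Itgb2 and -0.61 to 0.08 for Itgb3 (0.076 without SPF replicate 2). The fold of Itgax minus that of Itgal, a value added after seeing the data, was 0.54 to 0.91 with a library left out, against 0.69 with all. With the length trend removed, Itga4, Itgax and Itgb1 (3 chains) had both GF libraries higher, against 20.4% of all tested genes. In that setting 1 chain, Itgb3, had both lower, against 20.5%. The causes were not tested, and no alternative varied the depth.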
